A study of Mus musculus with 6 samples.

Results

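The genes described here are 3 IgG Fc receptors of the mouse, Fcgr1, Fcgr4 and Fcgr2b, together with Fcer1g, the signalling chain that Fcgr1 and Fcgr4 share. They were taken as every probe set annotated to these symbols, which gave 6 probe sets for 4 genes, out of 1382 probe sets and 987 singly named genes in the table. RNA from the uteri of female mice at 3.5 days post coitum was hybridised to Affymetrix arrays. Stat3 d/d uteri (3 arrays), which carry the deleted allele, were compared with Stat3 f/f uteri (3 arrays), which carry the intact floxed allele. The labels name no Cre driver, no strain, no adult age and no pooling, and do not say whether each array is a separate animal. The p-values therefore cover the spread of these arrays alone, and that spread may be technical.

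Fc receptors bind the constant part of antibodies on the surface of leukocytes. The activating receptors FcγRI (Fcgr1) and FcγRIV (Fcgr4) carry no signalling motif of their own in the mouse and pair with the common gamma chain (Fcer1g), whose immunoreceptor tyrosine-based activation motif recruits the kinase Syk. The inhibitory receptor FcγRIIb (Fcgr2b) carries an inhibition motif in its own tail and recruits the phosphatase SHIP-1, so that the balance of the receptors sets how strongly a cell responds to immune complexes. Macrophages and monocytes carry all of them, B cells carry FcγRIIb as their only IgG Fc receptor of this family, and natural killer cells use the gamma chain with other partners. In mouse macrophages, interferon gamma is a known inducer of Fcgr1 and Fcgr4.

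The promoters of the activating receptors are shown first because STAT dimers and the myeloid factor PU.1 bind short motifs there, and the compared groups differ in a STAT gene. Sequences are from RefSeq (GRCm38.p6), in lower case with motif matches in capitals, and run 5′ to 3′ on the strand of the gene up to the base just before its annotated start. The Fcgr1 window is chr3:96293970-96294088 on the minus strand, and the Fcgr4 window is chr1:171018826-171018925 on the plus strand.
Fcgr1: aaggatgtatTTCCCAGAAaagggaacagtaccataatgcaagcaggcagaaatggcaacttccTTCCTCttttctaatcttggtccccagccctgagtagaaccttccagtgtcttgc
Fcgr4: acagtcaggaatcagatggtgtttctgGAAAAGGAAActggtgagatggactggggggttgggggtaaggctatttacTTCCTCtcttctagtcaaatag

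The 250 bases before the start were searched on both strands for the STAT motif TTCNNNGAA, the interferon response core GAAANNGAAA and the PU.1 core GAGGAA. Fcgr1 held the STAT motif as TTCCCAGAA at -109 to -101, counting -1 as the last base before the start. Fcgr4 held the interferon response core as GAAAAGGAAA at -73 to -64. Both held the PU.1 core on the opposite strand (TTCCTC), at -55 to -50 in Fcgr1 and at -22 to -17 in Fcgr4, and no matches overlapped. Among 32851 promoter windows of that length, 7.02% held the STAT motif, 2.98% the interferon response core and 23.3% the PU.1 core. In the windows of Fcgr2b and Fcer1g none of these letters were found. A match is a description of sequence, and binding was not measured.

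Every probe set had a normalized intensity on each array, on a linear scale, between 2.47 and 4352 across the table. The deposited table had been selected on this comparison: all 1382 probe sets had group means at least 1.5-fold apart and groups that did not overlap. Passing the test therefore carries little weight of its own. In limma on log2(intensity + 1), with Benjamini-Hochberg adjustment over the table, 100% of probe sets passed an adjusted p of 0.05, and 67.4% passed as higher in Stat3 d/d. The median log2 change of all probe sets was 0.70, and that of the probe sets that rose was 0.93. The targeted gene was lower in Stat3 d/d: the brighter Stat3 probe set read 118 ± 14.9 in Stat3 d/d and 287 ± 60.8 in Stat3 f/f (mean ± SD, n = 3 arrays each). Its position with respect to the deleted exons was not looked at.

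All 4 genes were higher in the Stat3 d/d uteri, with log2 changes between 0.96 and 1.85 by the brightest probe set of each gene. The median over the genes of the table that rose was 0.92, close to the 0.96 of Fcgr1. The 6 probe sets passed in the same direction, against a background in which 67.4% of probe sets passed as higher. By gene, 3 of 4 were at least 2-fold higher on the log2 scale, against 27.5% of all genes of the table. The genes were chosen with results of these data known, so this share describes them and is no test.

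Fcgr4, the activating receptor FcγRIV, showed the largest change of the 4 genes by that rule on the log2(intensity + 1) scale. That order depends on the added 1 and on the probe set that reads Fcgr2b, as 1451941_a_at gave 2.04. Fcgr4 read 37.0, 33.7 and 22.0 in the Stat3 d/d arrays, against 8.94, 6.74 and 7.42 in the Stat3 f/f arrays. The lowest Stat3 d/d array was 2.47-fold above the highest Stat3 f/f array, and the Stat3 f/f arrays were dim. The log2 change was 1.85 (SE 0.22, 95% interval 1.37 to 2.33, limma adjusted p = 5.62e-05), which is 3.61-fold on the log2(intensity + 1) scale. As the added 1 lowers the change of dim probe sets, it was 1.98 without it. With 16 added in its place it was 0.97, below Fcgr2b (1.30, brightest probe set) and Fcer1g (1.13). With 1 added, 6.48% of all genes in the table had a larger log2 change.

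Fcgr1, the high-affinity receptor FcγRI, showed the smallest change by the brightest probe set of each gene. The Fcgr2b probe set 1455332_x_at changed slightly less (0.95). The only Fcgr1 probe set in the table read 51.2, 28.4 and 36.0 in the Stat3 d/d arrays, against 23.7, 19.9 and 13.8 in the Stat3 f/f arrays. The groups were separate but close, as the lowest Stat3 d/d array was 1.20-fold above the highest Stat3 f/f array. The log2 change was 0.96 (SE 0.25, 95% interval 0.41 to 1.52, limma adjusted p = 0.00464). The call was lost when arrays were centred on their median in this table (log2 change 0.50, limma adjusted p = 0.0953) or quantile normalized (0.49, limma adjusted p = 0.0895). Most probe sets of this selected table rose, so array medians differed by group (34.2 to 35.7 in Stat3 d/d, 23.7 to 26.0 in Stat3 f/f). Centring therefore took 0.47 off the log2 change of every probe set, and calls lost under it say little about the normalization. The call of Fcgr1 was also lost when 45000 tests, about the size of the array, were assumed in place of the selected 1382 (limma adjusted p = 0.151).

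Fcgr2b, the inhibitory receptor, was read by 3 probe sets, which agreed in direction but not in size. The brightest, 1435477_s_at, read 158, 117 and 87.7 in the Stat3 d/d arrays, against 49.8, 41.7 and 26.1 in the Stat3 f/f arrays. Its log2 change was 1.61 (SE 0.27, 95% interval 1.01 to 2.21, limma adjusted p = 0.000569), or 3.05-fold on that scale. Stat3 d/d replicate 1 was the highest array and Stat3 f/f replicate 4 the lowest.

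The probe set 1451941_a_at gave the largest change of the gene on the log2(intensity + 1) scale. It read 65.8, 41.8 and 34.4 in the Stat3 d/d arrays, against 16.4, 8.45 and 7.88 in the Stat3 f/f arrays, a log2 change of 2.04 (SE 0.30, limma adjusted p = 0.000232). With 16 added it gave 1.22, below the 1.30 of 1435477_s_at. The probe set 1455332_x_at gave the smallest. It read 57.9, 55.0 and 45.4 in the Stat3 d/d arrays, against 24.0, 28.2 and 28.0 in the Stat3 f/f arrays, a log2 change of 0.95 (SE 0.17, limma adjusted p = 0.000791). Averaged over its probe sets, Fcgr2b changed by 1.53 (SE 0.22).

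The 1435477_s_at and 1455332_x_at probe sets are annotated to the same source sequence. Their suffixes are those Affymetrix gives to probes shared with other transcripts, and the extracellular part of FcγRIIb is nearly identical to that of the activating receptor FcγRIII (Fcgr3). How much Fcgr3 transcript these probe sets read was not tested, and Fcgr3 itself was not analysed here. Across the 6 arrays, deviations from the group means correlated at 0.86 between 1435477_s_at and 1451941_a_at. Those of 1455332_x_at correlated with them at 0.23 and 0.04 (Pearson, a description over arrays that share their processing).

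Fcer1g, the gamma chain, read 273, 171 and 143 in the Stat3 d/d arrays, against 85.5, 104 and 51.1 in the Stat3 f/f arrays. The groups did not overlap, and the lowest Stat3 d/d array was 1.37-fold above the highest Stat3 f/f array. The log2 change was 1.28 (SE 0.30, 95% interval 0.62 to 1.94, limma adjusted p = 0.00266), or 2.43-fold on that scale. The call was lost when 45000 tests were assumed (limma adjusted p = 0.0865), whereas Fcgr4 and all 3 Fcgr2b probe sets passed there. That left 4 of the 6 probe sets, against 28% of all probe sets that passed as higher in that setting. After median centring 5 of the 6 passed as higher, against 30.5% of the table, and after quantile normalization 5 of the 6, against 31.5%. Both scalings lowered the median log2 change of all probe sets, to 0.24 and 0.25, and every Fc receptor probe set stayed higher in Stat3 d/d under them.

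**Figure D1:**
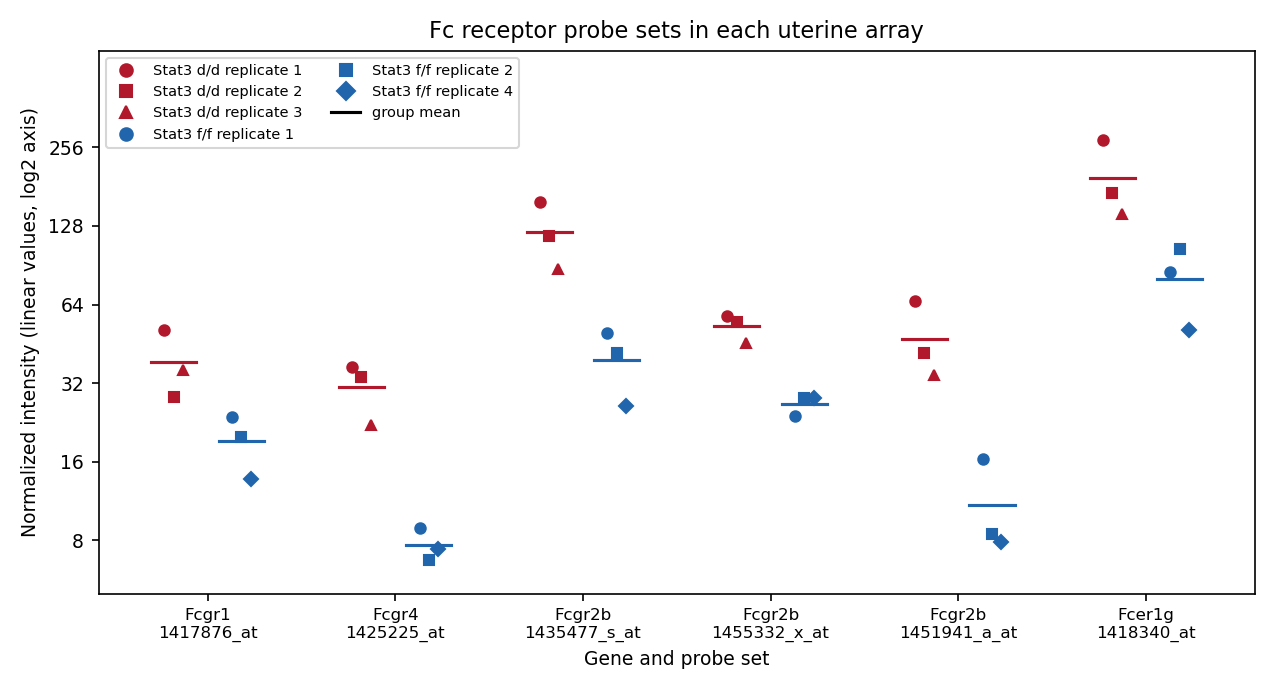
Normalized intensity (linear values on a log2 axis) of the 6 Fc receptor probe sets in each of the 3 Stat3 d/d and 3 Stat3 f/f arrays; each point is an array and each bar the arithmetic group mean. In every probe set the Stat3 d/d arrays lie above the Stat3 f/f arrays, with the widest gap between the groups in Fcgr4 (2.47-fold) and the narrowest in Fcgr1 (1.20-fold).

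Stat3 d/d replicate 1 was the highest array for 6 of 6 Fc receptor probe sets, while Stat3 f/f replicate 4 was the lowest for 4 of 6. Of the 931 probe sets of the table that were higher in Stat3 d/d, 40.5% had their highest value in Stat3 d/d replicate 1 and 41.1% their lowest in Stat3 f/f replicate 4. Without Stat3 d/d replicate 1 the log2 changes were 0.74 for Fcgr1, 1.71 for Fcgr4, 1.39 for the brightest Fcgr2b probe set and 1.01 for Fcer1g. Over the 6 settings that left out 1 array, every Fc receptor probe set passed, with the largest limma adjusted p at 0.0200, for Fcgr1. The table was selected on these same arrays, so this was largely set in advance. Over the whole table, 904 to 927 probe sets passed as higher in these settings, against 931 with all 6 arrays.

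The next comparison asked whether the activating receptors, the inhibitory receptor and the gamma chain changed by the same amount. For each array the log2 value of one gene was subtracted from that of another, which compares changes and not levels. With 3 arrays against 3, the exact permutation test cannot give a two-sided p below 0.1, so no pair could pass, and p-values were adjusted over the 6 pairs. The change of Fcgr4 exceeded that of Fcgr1 by 0.89 on the log2 scale (two-sided exact p = 0.1, adjusted p = 0.3). The within-array difference was -0.46, 0.24 and -0.68 in the Stat3 d/d arrays, against -1.32, -1.43 and -0.81 in the Stat3 f/f arrays, and the groups did not overlap. On the log2(intensity + 1) scale, all 3 Stat3 d/d arrays thus held more Fcgr4 relative to Fcgr1 than any Stat3 f/f array. With 16 added in place of 1, a reading added with the data in view, the difference was 0.35. Its exact permutation p was then 0.2, above the smallest possible, so the groups were no longer fully separate.

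The inhibitory receptor was then set against each activating receptor. The change of Fcgr1 was smaller than that of Fcgr2b by 0.64 on the log2 scale, a difference of -0.64 with groups that did not overlap (two-sided exact p = 0.1, adjusted p = 0.3). The change of Fcgr4 was larger by 0.24, with overlapping groups (exact p = 0.4, adjusted p = 0.4). Both depend on the probe set that reads Fcgr2b. With 1455332_x_at, Fcgr1 minus Fcgr2b was 0.013 and Fcgr4 minus Fcgr2b was 0.90. With 1451941_a_at they were -1.07 and -0.19. With 16 added in place of 1, and the brightest probe set, Fcgr4 minus Fcgr2b turned to -0.33 (exact p = 0.1, the smallest possible). These readings were added with the data in view.

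On the log2(intensity + 1) scale the change of the gamma chain lay between those of Fcgr1 and Fcgr4, the receptors it pairs with. Fcgr4 minus Fcer1g changed by 0.57 (exact p = 0.3, adjusted p = 0.36) and Fcgr1 minus Fcer1g by -0.32 (exact p = 0.2, adjusted p = 0.3), both with overlapping groups. With 16 added, Fcgr4 minus Fcer1g turned to -0.16 (exact p = 0.6), and the gamma chain (1.13) was then above both Fcgr4 (0.97) and Fcgr1 (0.62). Fcer1g minus Fcgr2b changed by -0.33 (exact p = 0.2, adjusted p = 0.3). It was 0.33 with 1455332_x_at and -0.76 with 1451941_a_at. With the brightest Fcgr2b probe set, the arrays of both groups overlapped in all 3 of these pairs.

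In bulk tissue, a change in the number of cells of a type and a change in RNA per cell cannot be told apart, so the receptors were set beside leukocyte markers. Of 23 markers of macrophages and monocytes, 11 were in the table and all 11 rose, where 67.4% of all probe sets did. Their median log2 change was 1.25, against 0.92 for the genes of the table that rose and 0.70 for all its genes. After median centring 7 of the 11 passed as higher, against 30.5% of all probe sets, and after quantile normalization 7, against 31.5%. With 45000 assumed tests 4 did, against 28%. Their summed intensity ranged from 2445 to 5425 in Stat3 d/d and from 1252 to 1663 in Stat3 f/f. The log2 changes of the 11 ran from 0.61, for the dim Ms4a4c (mean 6.56 in Stat3 d/d and 3.89 in Stat3 f/f), to 1.79. The largest were those of the lysosomal protease Ctss (1.79, SE 0.31), Ms4a7 (1.57, SE 0.30), a membrane protein of macrophages, and the pore-forming protein gene Mpeg1 (1.35, SE 0.25). Stat3 d/d replicate 1 was the highest array for 11 of 11 of these markers, against 40.5% of all higher probe sets. Stat3 f/f replicate 4 was the lowest for 10 of 11, against 41.1%, and for 4 of 6 Fc receptor probe sets. The summed general leukocyte markers (1868 and 463) and natural killer cell markers (616 and 95.4) were also highest and lowest in these arrays.

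The change of each receptor was then taken relative to the mean log2 value of these 11 markers in the same array. As the table was selected on this comparison, the 11 had to differ between the groups. Listed markers outside the table do not enter the mean. Fcgr4 exceeded the markers by 0.64 (two-sided exact p = 0.1, the smallest possible; adjusted p = 0.2 over the 4 genes). It was at -2.33, -1.84 and -2.15 relative to the markers in the Stat3 d/d arrays, against -2.84, -2.95 and -2.45 in the Stat3 f/f arrays, without overlap. With 16 added in place of 1, an alternative chosen after seeing the data, the difference was -0.025 (exact p = 0.9). Fcgr2b exceeded them by 0.40 (exact p = 0.1, adjusted p = 0.2), also without overlap, but its probe set 1455332_x_at gave -0.26. Fcer1g lay nearest to the markers: its difference was 0.07 (exact p = 0.8, adjusted p = 0.8), and -0.052 without Stat3 f/f replicate 4. Fcgr1 gave -0.24 (exact p = 0.4, adjusted p = 0.533), and -0.37 with 16 added (exact p = 0.1, the smallest possible). Relative to 8 general leukocyte markers, an alternative added with the data in view, Fcgr4 stood at 0.70 and Fcgr2b at 0.46. Laptm5 is in both lists of markers. The part of leukocyte number in the changes was not tested.

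**Figure D2:**
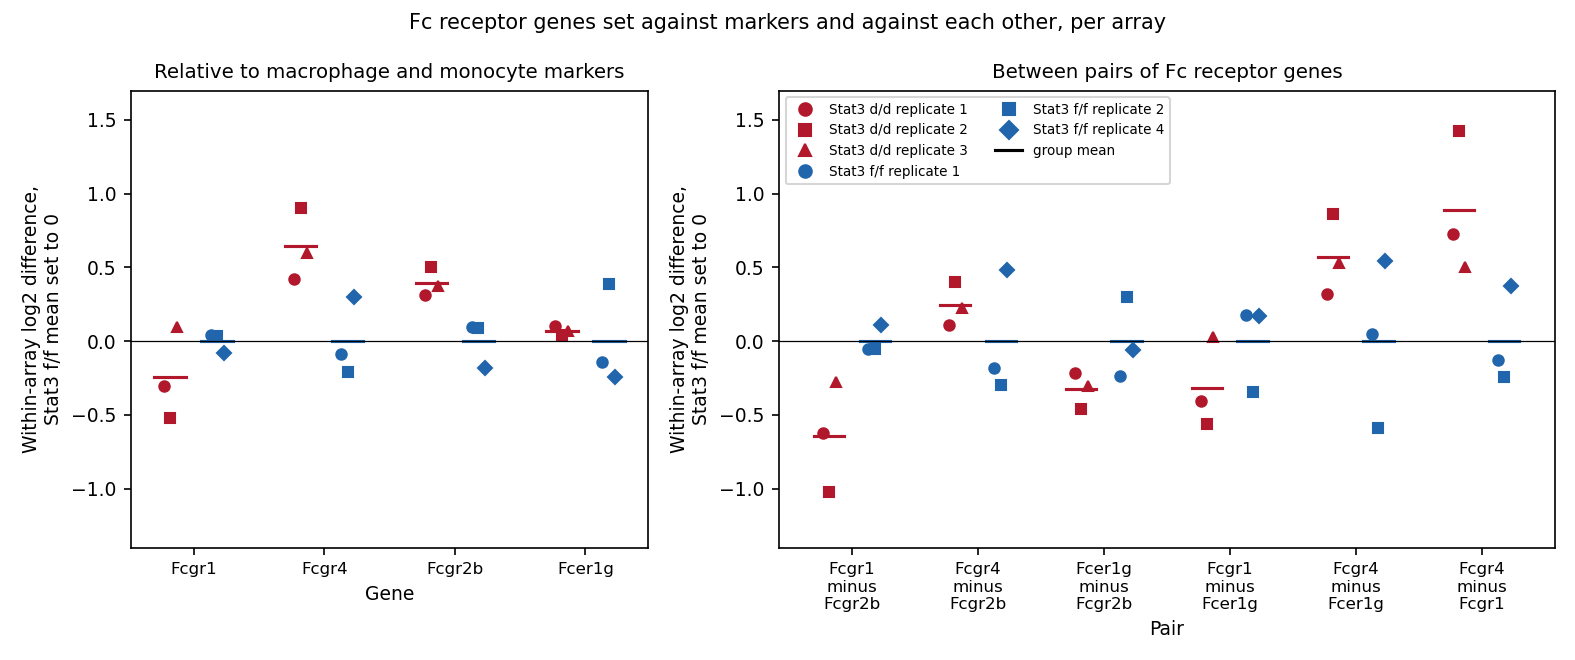
Within-array log2 differences, with the Stat3 f/f mean of each set to 0: the 4 Fc receptor genes relative to the mean of 11 macrophage and monocyte markers (left) and the 6 pairs of Fc receptor genes (right), one point per array and bars at group means. Relative to the markers, on the log2(intensity + 1) scale drawn, Fcgr4 and Fcgr2b lie higher in all 3 Stat3 d/d arrays. Their mean differences are 0.64 and 0.40, or -0.025 and 0.30 with 16 added. On the scale drawn the arrays of both groups mix for Fcer1g and Fcgr1 (mean difference of Fcgr1 -0.24, or -0.37 with 16 added).

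Other leukocyte lists gave context for which cells could carry these receptors. Of 14 natural killer cell markers 10 were in the table, and all 10 rose (67.4% of all probe sets did), with a median log2 change of 1.63 and sums from 406 to 616 in Stat3 d/d, against 95.4 to 157 in Stat3 f/f. After either scaling, and with 45000 assumed tests, 9 of the 10 passed as higher. The shares of all probe sets were 30.5% (median centring), 31.5% (quantile) and 28% (45000 assumed tests). Of 14 dendritic cell markers 4, among them the integrin Itgax (1.52, SE 0.18), were in the table and rose, where 67.4% of all probe sets did. Their median was 1.12, with sums from 121 to 183 in Stat3 d/d and 59.6 to 74.7 in Stat3 f/f. Of the 4, 3 also passed after either scaling and 2 with 45000 assumed tests, against the same shares of all probe sets. Of 11 T cell markers the table held Cd3g, a chain of the T cell receptor complex, with a sum of 6.31 to 17.9 in Stat3 d/d and 3.51 to 4.66 in Stat3 f/f. Of 13 neutrophil, 10 B and plasma cell and 10 mast cell and basophil markers the table held 0, and those genes were not analysed here. Of 10 general leukocyte markers 8 were in the table and rose (median 1.11, sums from 1118 to 1868 in Stat3 d/d and 463 to 709 in Stat3 f/f), among them the phosphatase Ptprc (1.61, SE 0.24). That all 8 rose stands against 67.4% of all probe sets. After either scaling 5 of the 8 passed as higher, against 30.5% (median centring) and 31.5% (quantile), and 3 with 45000 assumed tests, against 28%. No marker in the table was at 0, and the part of any of these cells in the changes of the Fc receptors was not tested. Of 19 markers of uterine epithelium, stroma and muscle the table held Pgr, the progesterone receptor, which fell by 0.84 (SE 0.20) on the log2 scale.

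Of 36 genes that act downstream of the activating receptors, 7 were in the table, and 6 rose and 1 fell, where 67.4% of all probe sets rose, with a median log2 change of 0.72, close to the 0.70 of all genes of the table. The small GTPase Rac2, which drives phagocytosis and the oxidative burst, read 90.0, 56.3 and 45.1 in the Stat3 d/d arrays, against 28.4, 31.5 and 21.0 in the Stat3 f/f arrays (log2 change 1.17, SE 0.26). Cybb, the catalytic subunit of the phagocyte NADPH oxidase, read 113, 49.7 and 49.5 in the Stat3 d/d arrays, against 31.5, 27.4 and 27.8 in the Stat3 f/f arrays (1.15, SE 0.29). In both, Stat3 d/d replicate 1 stood above the other arrays. The adaptor Lcp2 rose by 0.97 (SE 0.25), the GTPase Cdc42 by 0.72 (SE 0.21) and the exchange factor Vav1 by 0.62 (SE 0.18). Pik3ap1, an adaptor for phosphoinositide 3-kinase, fell by 1.19 (SE 0.28). With either scaling 1 of the rises passed, that of Rac2 (limma adjusted p = 0.0314 after median centring and 0.0430 after quantile normalization), against 30.5% and 31.5% of all probe sets. With 45000 assumed tests 0 of the 7 passed in limma, although all 7 had passed over the table.

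On the inhibitory side, 3 of 23 listed phosphatases and inhibitory receptors were in the table, and 2 rose and 1 fell, where 67.4% of all probe sets rose. Ptpn6, which encodes the phosphatase SHP-1, read 51.7, 39.7 and 33.8 in the Stat3 d/d arrays, against 23.8, 22.8 and 16.9 in the Stat3 f/f arrays (log2 change 0.94, SE 0.21). Its call was lost after median centring (limma adjusted p = 0.0623), after quantile normalization (0.0792) and with 45000 assumed tests (0.0719). Cd72, an inhibitory receptor best known from B cells, rose by 1.08 (SE 0.20), and Ceacam1, an adhesion molecule of epithelium and leukocytes with inhibition motifs, fell by 0.73 (SE 0.22). Inpp5d, the gene of SHIP-1, and the kinase gene Syk were not analysed here.

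Of 18 other receptors listed as signalling through the gamma chain, 2 were in the table and both rose, where 67.4% of all probe sets did. Ncr1, an activating receptor of natural killer cells that pairs with the gamma chain, read 31.6, 25.2 and 15.4 in the Stat3 d/d arrays, against 10.3, 9.93 and 8.78 in the Stat3 f/f arrays (log2 change 1.18, SE 0.24). Clec7a, the beta-glucan receptor Dectin-1, rose by 1.06 (SE 0.27); it carries a motif of its own, and its use of the gamma chain is known only for some responses. Its call was lost after median centring (limma adjusted p = 0.0734), after quantile normalization (0.0823) and with 45000 assumed tests (0.142). Among ligands, 1 of 13 immunoglobulin chains was in the table, the IgM heavy chain Ighm. It read 49.6, 41.5 and 28.7 in the Stat3 d/d arrays, against 21.9, 25.1 and 15.9 in the Stat3 f/f arrays (0.89, SE 0.24), on a probe set with a shared-sequence suffix. Its call was lost in the same settings (limma adjusted p = 0.142, 0.149 and 0.162 in that order). IgM is no ligand of the 3 IgG receptors. Of 14 further Fc receptor family genes the table held Trim21, a cytosolic antibody receptor, which rose by 0.88 (SE 0.16).

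Of 25 other phagocytic receptors listed, 4 were in the table and all rose, where 67.4% of all probe sets did, with a median log2 change of 1.35: Itgax, the common leukocyte integrin beta chain Itgb2 (1.48, SE 0.30), the complement C3a receptor C3ar1 (1.22, SE 0.29) and the lipopolysaccharide receptor Tlr4 (0.78, SE 0.20). After either scaling 3 of the 4 passed as higher, all but Tlr4 (limma adjusted p = 0.163 after median centring), against 30.5% (median centring) and 31.5% (quantile) of all probe sets. With 45000 assumed tests 2 did, against 28%.

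**Figure D3:**
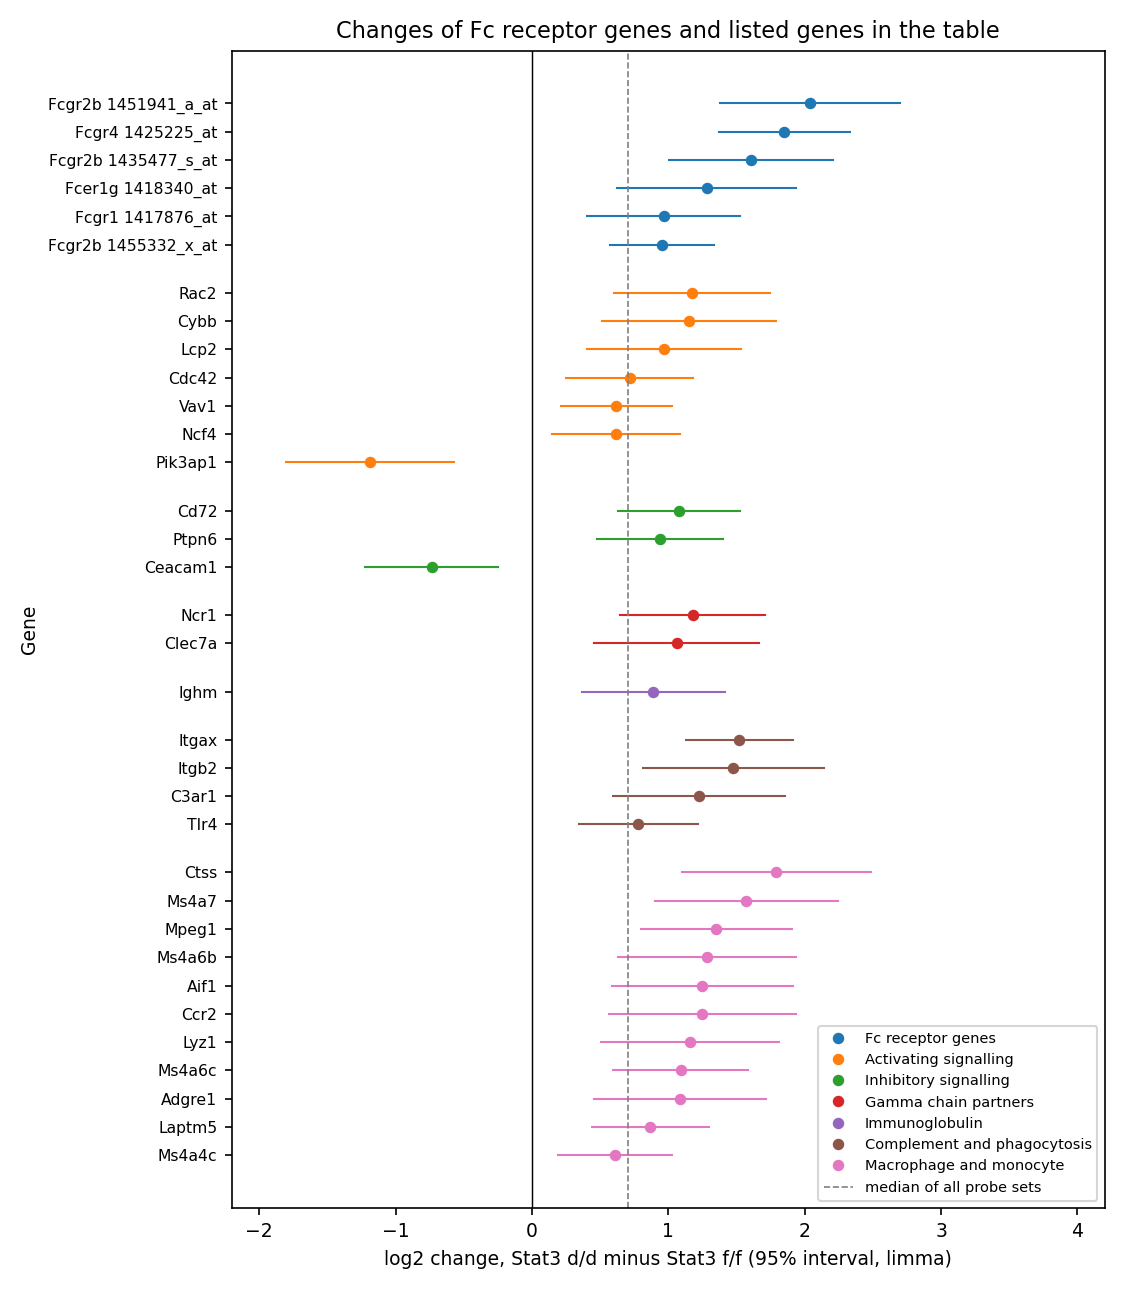
Log2 change (Stat3 d/d minus Stat3 f/f, with 95% limma intervals) of the 6 Fc receptor probe sets and of listed genes in the table, grouped by role; the dashed line is the median of all probe sets (0.70). The Fc receptor probe sets run from 0.95 to 2.04, and of the listed genes drawn here Pik3ap1 and Ceacam1 lie below 0. The median of the probe sets that rose, not drawn, is 0.93.

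Because Fcgr1 and Fcgr4 are known targets of interferon gamma in mouse macrophages, 22 genes induced by this cytokine were set beside them. The table held 13, and all 13 rose, where 67.4% of all probe sets did, with a median log2 change of 1.72 and sums from 4153 to 4607 in Stat3 d/d and from 1024 to 1215 in Stat3 f/f. After either scaling, and with 45000 assumed tests, 12 of the 13 passed as higher. Of all probe sets, 30.5% did after median centring, 31.5% after quantile normalization and 28% with 45000 assumed tests. The GTPase gene Igtp read 590, 587 and 586 in the Stat3 d/d arrays, against 98.4, 132 and 93.2 in the Stat3 f/f arrays. The receptors, by the brightest probe set of each, varied more among Stat3 d/d arrays than most of these genes. The coefficient of variation in Stat3 d/d had a median of 12.4% over the 13 genes, from 0.37% (Igtp) to 37.6%. Over the 11 macrophage and monocyte markers its median was 35.0%, from 15.4% to 51.7%. Each coefficient rests on 3 arrays, and it was not taken over the other lists. The summed natural killer cell markers read 616, 607 and 406 in the Stat3 d/d arrays, and the summed general leukocyte markers 1868, 1454 and 1118. The coefficient was 25.4% for Fcgr4, 30.2% for Fcgr1, 29.1% for the brightest Fcgr2b probe set and 35.0% for Fcer1g, but 12.4% for the Fcgr2b probe set 1455332_x_at. Stat3 d/d replicate 1 was the highest array for 5 of the 13 interferon gamma genes (38.5%), close to its share among all higher probe sets (40.5%). The part of interferon, or of any cell type, in the changes of the receptors was not tested.

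The genes whose log2 values ran most like each receptor over the 6 arrays were listed by Pearson correlation, as a description over arrays that include the group difference. For Fcer1g they were Coro1a, an actin-binding protein of leukocytes (0.997), the integrin chain Itgb2 (0.994) and the lymphoid and myeloid transcription factor Ikzf1 (0.994). For Fcgr2b they were Ptpn6 (0.996), Ptprc (0.994) and Ms4a6c (0.993). For Fcgr1 they were Apoe, an apolipoprotein made by macrophages among other cells (0.990), the glypican Gpc6 (0.981) and Evi2a (0.978). For Fcgr4 they were AW112010 (0.996), Crebl2 (0.995) and Niban1 (0.995), so that of the 12 genes named in this way none was shared between receptors. Of 986 other genes, 379 had a correlation above 0.9 with Fcgr4, 274 with Fcgr2b, 138 with Fcer1g and 117 with Fcgr1.

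Among themselves, with each gene read by its brightest probe set, Fcgr2b and Fcer1g were the closest pair. Their deviations from the group means correlated at 0.91 over 6 arrays. The other Fcgr2b probe sets were not set against the other genes in this way. Fcgr1 and Fcgr4 were the least alike pair of genes, at 0.33. Fcgr2b, Fcgr4 and Fcer1g lie near each other on chromosome 1 and Fcgr1 on chromosome 3, by the RefSeq gene order of GRCm38.p6. From Fcgr2b to Fcer1g that order lists 11 protein-coding genes, of which these 3 were in the table. The others, Fcgr3 among them, were not analysed here.

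**Figure D4:**
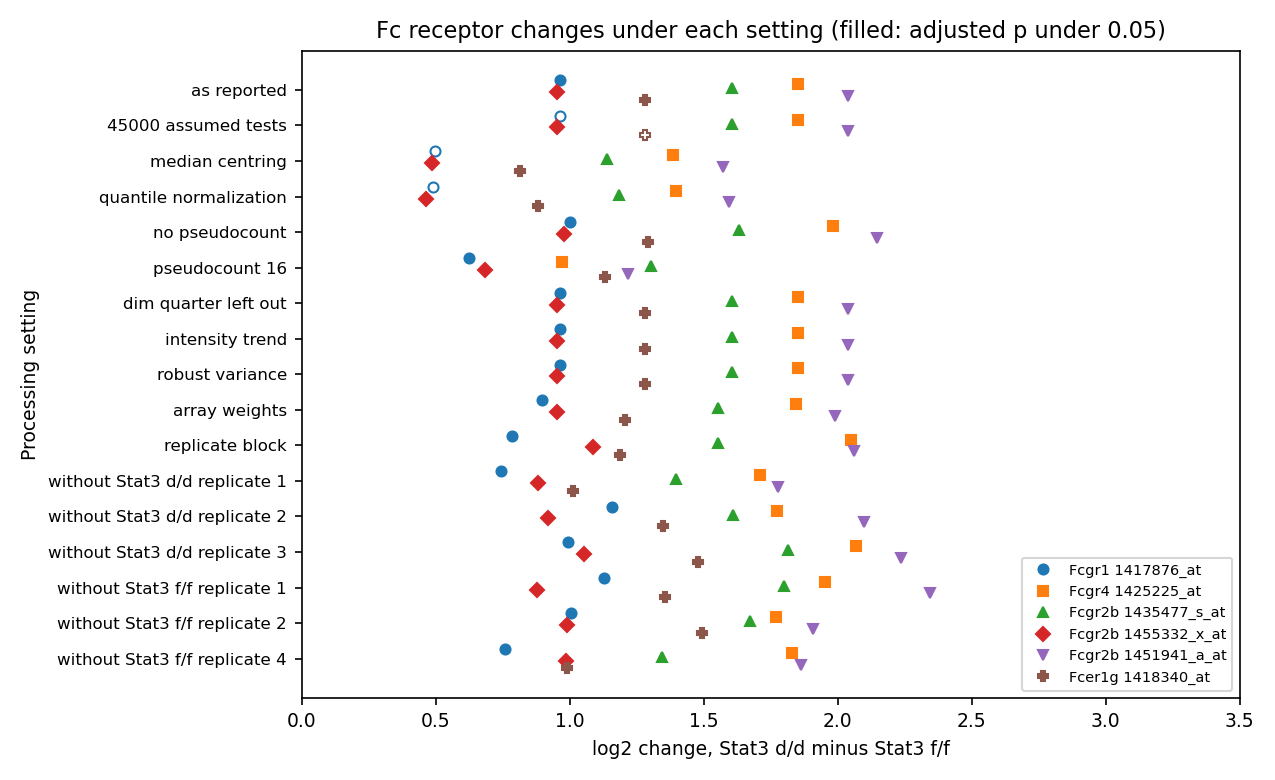
Log2 change (Stat3 d/d minus Stat3 f/f) of each Fc receptor probe set under the reported setting and 16 alternatives; filled markers have a limma adjusted p under 0.05. All points lie above 0, which the selection of the table fixed for every setting but median centring and quantile normalization. The open markers are Fcgr1 with 45000 assumed tests, median centring and quantile normalization, and Fcer1g with 45000 assumed tests.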

How the data were processed

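Biotin-labelled cRNA from Stat3 d/d and Stat3 f/f uteri was put on Affymetrix arrays, 3 a group, per the labels. The authors processed the arrays with RMA (background correction, quantile normalization and probe summary), per the submitters' processing notes. The deposited values are intensity values on a linear scale, a step back from log2 that no source records. How the 1382 probe sets were selected is not given in the sources used here, nor is a genome build. No pair of arrays held identical values, and the number of arrays limits the precision.

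Probe sets were named through the platform annotation: 1191 had 1 symbol, 57 several and 134 none. All 4 member symbols matched RefSeq (GRCm38.p6). A gene was represented by its probe set with the highest mean over the 6 arrays. log2(intensity + 1) was fitted without covariates by lmFit and eBayes of limma 3.58.1 (R 4.3.3), p-values being adjusted over the table (Benjamini-Hochberg; threshold 0.05), and the fit was tested on simulated data. The plan had assumed either log2 or linear values. Within-array differences used exact permutation tests (scipy 1.17.1). Figures used matplotlib 3.10.9.

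Members and lists were chosen with earlier results of these data known. Named genes were the members, Stat3, in each list every gene in the table or the 6 with the smallest adjusted p, and the 3 genes most correlated with each member. Fcgr3, Syk and Inpp5d are named without values. Alternatives were other scalings, other pseudocounts, a trended or robust variance, weighted arrays, the dimmest probe sets left out, 45000 assumed tests, each array left out, a replicate block and the mean of probe sets. Other Fcgr2b probe sets, the general leukocyte markers and within-array differences with 16 added were included after the data were seen.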

Additional observations from a re-analysis of the deposited data

How the results depend on the processing

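All 6 Fc receptor probe sets stayed higher in Stat3 d/d under every alternative run. As the table holds only probe sets whose groups do not overlap, this was set in advance for all settings but the scalings. The calls lost were those of Fcgr1 (median centring, quantile normalization and 45000 assumed tests) and of Fcer1g (45000 assumed tests). Scaling on this selected table lowers its log2 changes, so calls lost under it say little about the normalization. Assuming more tests raises every adjusted p. Over the whole table, 422 probe sets were higher past the threshold after median centring, 436 after quantile normalization and 387 with 45000 assumed tests, against 931 as reported, and 131 were lower with 45000 assumed tests, against 451. Of the listed genes that are not Fc receptors here, 33 passed as higher with 45000 assumed tests, against 57, and 0 as lower in limma, against 3 as reported. Relative to macrophage and monocyte markers, Fcer1g turned to -0.052 without Stat3 f/f replicate 4, within a range of -0.052 to 0.26 over the arrays left out. It also turned to -0.052 with the replicate number as a block, which rests on the arrays numbered 1 and 2 in each group. With Fcgr2b read by 1455332_x_at, Fcgr1 minus Fcgr2b turned to 0.013, Fcer1g minus Fcgr2b to 0.33 and Fcgr2b relative to the markers to -0.26; with 1451941_a_at, Fcgr4 minus Fcgr2b turned to -0.19. With 16 added in place of 1, chosen after seeing the data, Fcgr4 minus Fcgr2b turned to -0.33, Fcgr4 minus Fcer1g to -0.16 and Fcgr4 relative to the markers to -0.025, and Fcgr4 (0.97) fell below Fcgr2b and Fcer1g; a larger added value lowers the change of dim probe sets most. The cause of the other turns was not tested. The titles share the numbers 1 and 2 between the groups, but no label says that they pair the arrays. Deviations of same-numbered arrays correlated at 0.09 and 0.03. Stat3 d/d replicate 3 and Stat3 f/f replicate 4 have no partner of the same number. With the number as a block, the estimated change therefore comes from the arrays numbered 1 and 2 alone. It was 0.79 for Fcgr1 and 2.05 for Fcgr4. All 6 Fc receptor probe sets passed, so no call of theirs changed, where 886 of all 1382 probe sets passed as higher. The block is thus no check over all 6 arrays. Dim signal of Fcgr4 on the Stat3 f/f arrays limits its fold, which ran from 0.97 to 1.98 (log2) over the pseudocounts.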

Other observations

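The promoter motifs searched for the Fc receptor genes were also counted over the genes of the table that have a RefSeq promoter window, 758 in all, taking rises and falls together. The interferon response core GAAANNGAAA was in the windows of 6.60% of these genes, against 3.46% of all 27025 genes with a window. The STAT motif TTCNNNGAA was in 8.58% of the genes of the table, against 8.13% of all genes, and the PU.1 core GAGGAA in 27.0%, against 25.9%. These shares are descriptions of sequence, and the difference between the table and all genes was not tested.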
